A study of Mus musculus with 16 samples.

Results

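The T-box factors described here were 9 genes, Tbx1, Tbx2, Tbx3, Tbx4, Tbx5, Tbx15, Tbx18, Tbx20 and Tbx21, out of 22232 protein-coding gene names in the mm9 annotation. They were taken by name from the T-box family, of which the annotation held 17 genes. The rule uses no peak values, but the list was drawn up with earlier results of these data known, so the share of members that was marked is a description. For each gene the peaks of 10 ChIP-seq lists were collected at the promoter and over the gene body. A promoter peak was one whose midpoint fell no more than 2500 bp from the start of a protein-coding transcript, and its whole width was then counted. A peak counted for the gene body when it overlapped the annotated gene.

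The cells were of the 46C line, a mouse embryonic stem (ES) cell line that carries a Sox1-GFP reporter, and neural progenitor cells (NPCs) made from it in suspension culture and collected on day 6. The study asked how PCGF5, a subunit of a variant Polycomb repressive complex PRC1, shapes chromatin during neural differentiation. H2AK119ub1 and H3K27me3 were each profiled in 4 groups, namely wild type ES cells, PCGF5-depleted ES cells (labelled shPCGF5), wild type NPCs and PCGF5-depleted NPCs. The Flag libraries, 1 from ES cells and 1 from NPCs, came from cells in which a Flag tag was added to the endogenous Pcgf5 gene, and the labels call these cells wild type. Each group and mark had 1 library, so no difference between lists was tested and every ratio below compares a pair of libraries. The sources used here describe both short hairpin and gene-disrupted lines for the loss of PCGF5, so the label shPCGF5 is kept as written. The peak lists held 3845 to 8672 peaks for H2AK119ub1, 10234 to 14759 for H3K27me3, and 653 (ES) and 12013 (NPC) for Flag-PCGF5. They carried no read totals, so the depth was unknown, and a gene without a peak in a list is not a gene without the mark. They hold no expression values, so the cell types named in the labels were not checked against expressed markers.

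T-box factors bind DNA through a shared T-box domain and control the formation of mesoderm, heart, limbs and the pharynx, and in the immune system the fate of T cells. Many of them are not expressed in ES cells, Tbx3 being a known exception. Polycomb repressive complex PRC1 places ubiquitin on a lysine of histone H2A (H2AK119ub1) and PRC2 places methyl groups on a lysine of histone H3 (H3K27me3), and in mouse ES cells both marks are found mainly at CpG-rich promoters of genes for developmental regulators.

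The sequences of the promoters are shown to let the CpG content of marked and unmarked T-box genes be compared. Each line gives the 200 bases directly upstream of the first start site in mm9, on the strand of the gene, 5′ to 3′, with CpG dinucleotides in capitals. The first 4 genes were marked in NPCs. The stretch of Tbx3, chr5:120120478-120120677 (+), held 19 CpGs and lay in an intron of the gene Gm2301. That of Tbx15, chr3:99057483-99057682 (+), also held 19 and lay in an intron of Tbx15, since a longer annotated transcript that is not classed as protein-coding starts further upstream. That of Tbx20, chr9:24578747-24578946 (-), held 18 CpGs, and that of Tbx5, chr5:120284472-120284671 (+), held 0. The last pair had no histone peak at the promoter in any list. The stretch of Tbx22, chrX:104863103-104863302 (+), held 1 CpG, and that of Mga, chr2:119722764-119722963 (+), held 17. Those of Tbx20, Tbx5, Tbx22 and Mga lay outside annotated genes.
Tbx3: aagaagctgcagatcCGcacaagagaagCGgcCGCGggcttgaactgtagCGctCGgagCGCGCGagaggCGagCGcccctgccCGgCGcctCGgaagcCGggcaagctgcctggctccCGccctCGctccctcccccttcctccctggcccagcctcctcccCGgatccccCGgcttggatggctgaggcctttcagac
Tbx15: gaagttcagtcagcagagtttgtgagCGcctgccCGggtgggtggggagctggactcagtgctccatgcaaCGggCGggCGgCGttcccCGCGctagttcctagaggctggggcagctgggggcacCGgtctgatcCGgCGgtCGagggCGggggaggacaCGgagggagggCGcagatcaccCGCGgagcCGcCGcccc
Tbx20: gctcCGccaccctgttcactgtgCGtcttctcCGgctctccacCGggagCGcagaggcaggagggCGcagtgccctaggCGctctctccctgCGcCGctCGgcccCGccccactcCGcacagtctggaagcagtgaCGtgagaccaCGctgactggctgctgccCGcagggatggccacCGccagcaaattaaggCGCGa
Tbx5: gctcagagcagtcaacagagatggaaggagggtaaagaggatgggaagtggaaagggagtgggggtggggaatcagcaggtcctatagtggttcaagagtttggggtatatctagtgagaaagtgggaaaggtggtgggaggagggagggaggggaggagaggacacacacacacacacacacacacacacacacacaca
Tbx22: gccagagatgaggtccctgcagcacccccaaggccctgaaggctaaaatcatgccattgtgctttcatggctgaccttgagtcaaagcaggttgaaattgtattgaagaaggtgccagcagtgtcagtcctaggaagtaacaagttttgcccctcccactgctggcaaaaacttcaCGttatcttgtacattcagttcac
Mga: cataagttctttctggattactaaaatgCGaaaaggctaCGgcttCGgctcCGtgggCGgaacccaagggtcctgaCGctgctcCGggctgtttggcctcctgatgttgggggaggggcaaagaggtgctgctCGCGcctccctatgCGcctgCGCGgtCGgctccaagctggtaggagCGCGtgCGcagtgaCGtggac

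In wild type NPCs the strongest promoter peaks did not all sit on such CpG-dense stretches. A pair of 200-base windows centred on peak summits, which differ in both gene and mark, is given as an example. The H2AK119ub1 summit with the highest fold enrichment of any member, at Tbx3 (chr5:120131623-120131822, +, intron of Tbx3), had 1 CpG, whereas the strongest H3K27me3 summit at Tbx18 (chr9:87625048-87625247, -, intron of Tbx18) had 26. For the other mark, the strongest summit had 23 CpGs at Tbx3 (H3K27me3) and 3 at Tbx18 (H2AK119ub1). CpGs are again in capitals.
Tbx3 H2AK119ub1 summit: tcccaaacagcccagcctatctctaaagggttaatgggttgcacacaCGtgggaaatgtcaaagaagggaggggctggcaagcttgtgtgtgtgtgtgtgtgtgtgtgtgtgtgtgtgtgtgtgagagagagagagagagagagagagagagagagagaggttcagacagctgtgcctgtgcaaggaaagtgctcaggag
Tbx18 H3K27me3 summit: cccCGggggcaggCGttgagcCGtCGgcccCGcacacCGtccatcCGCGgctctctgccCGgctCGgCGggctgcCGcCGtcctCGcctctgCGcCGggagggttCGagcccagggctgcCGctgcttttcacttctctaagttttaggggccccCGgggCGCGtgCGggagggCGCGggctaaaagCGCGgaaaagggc
Over the 9 members the windows at the strongest H2AK119ub1 summits held a median of 3 CpGs (range 0 to 12), those at the strongest H3K27me3 summits a median of 8 (range 1 to 26), and the windows just upstream of the first start sites a median of 18 (range 0 to 27). Long runs of a short repeated unit, such as GT or GA, lay in the H2AK119ub1 windows of Tbx3, Tbx4, Tbx18 and Tbx21. They also lay in the H3K27me3 windows of Tbx4 and Tbx5. The effect of such repeats on the peaks and their fold enrichment was not tested.

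Both histone marks were found at the promoters of all 9 T-box genes in wild type NPCs. For H2AK119ub1, 4 of 9 members had a promoter peak in wild type ES cells, where 6.69% of all genes did. In PCGF5-depleted ES cells 8 of 9 had one, against 5.96% of all genes, and 5 with a 1000 bp window, the higher-scoring 50% of each list or lists of equal length, each reduced to its best peaks in the number of the shortest list of its mark. The count was 9 of 9 in wild type NPCs (4.98% of all genes) and 7 of 9 in PCGF5-depleted NPCs (4.17%). For H3K27me3, 7 of 9 members were marked in wild type ES cells (13.4% of all genes), 7 of 9 in PCGF5-depleted ES cells (12.9%), 9 of 9 in wild type NPCs (15.7%) and 9 of 9 in PCGF5-depleted NPCs (15.5%). The ES counts of H3K27me3 dropped to 4 in wild type cells with the higher-scoring 50% and to 4 in depleted cells with the 1000 bp window. Some members counted through a single peak with a q-value above 0.05. These were the H2AK119ub1 peaks of Tbx18 and Tbx20 in depleted ES cells (-log10 q of 1.15 each) and of Tbx18 in depleted NPCs (0.94). The H3K27me3 peak of Tbx15 in wild type ES cells (1.18) was also of this kind. Tbx1, Tbx2, Tbx4 and Tbx5 were marked in all 8 histone lists, as were 316 of the 22232 genes (1.42%), and Tbx3 was marked in the fewest, 4 lists, all from NPCs. No histone list held a promoter peak at 16758 genes (75.4%).

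**Figure D1:**
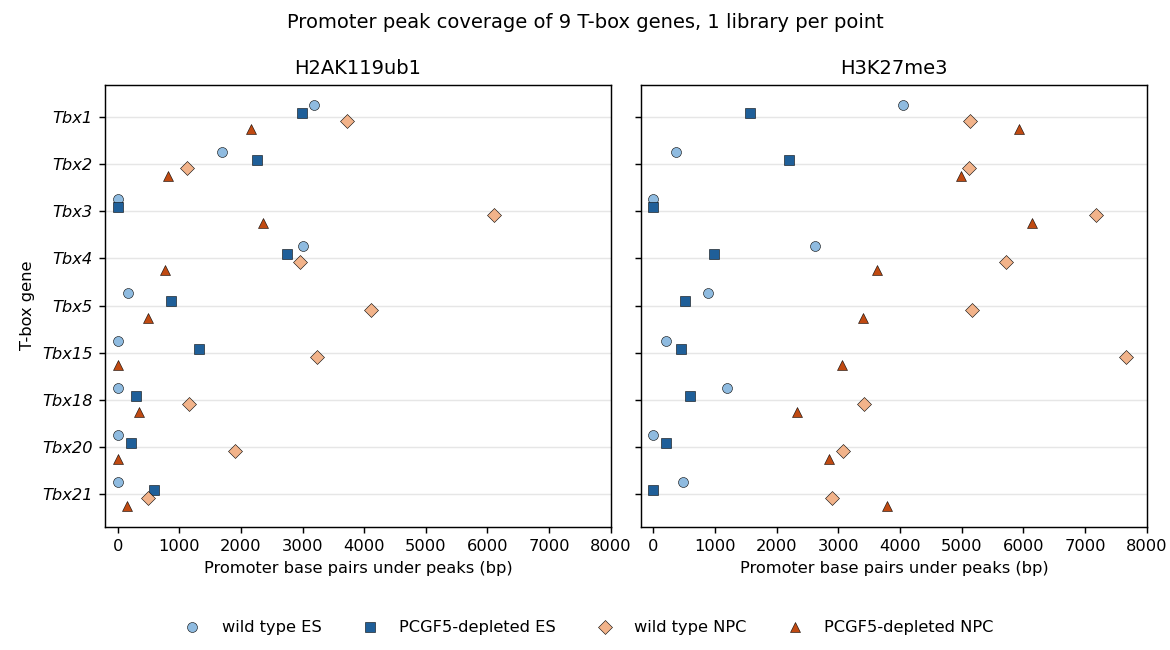
Base pairs under promoter peaks (x axis, bp) of each T-box gene (y axis) in the 4 lists of H2AK119ub1 (left) and of H3K27me3 (right); each point is 1 library. For H2AK119ub1 the wild type NPC point lies to the right of the PCGF5-depleted NPC point in all 9 genes, and for H3K27me3 both NPC points lie to the right of both ES points in all 9.

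The marked members also carried more marked sequence than most marked genes. The median promoter coverage over the 9 members in wild type NPCs was 2956 bp of H2AK119ub1 and 5142 bp of H3K27me3, where the median over all marked genes was 387 bp and 1303 bp. All 9 members lay above the median of the marked genes for both marks in these cells. In PCGF5-depleted NPCs 6 of the 7 members marked with H2AK119ub1 and all 9 marked with H3K27me3 lay above it, with medians over the marked genes of 299 bp and 940 bp. In ES cells the members were more scattered. Of those marked with H2AK119ub1, 3 of 4 in wild type and 6 of 8 in PCGF5-depleted cells lay above the medians of 322.5 bp and 311 bp, and of those marked with H3K27me3, 4 of 7 in each genotype lay above 556.5 bp and 521 bp. Genes with several start sites have more sequence in which a peak can count. The windows of Tbx3 and Tbx4 spanned 10351 and 13643 bp and that of Tbx1 6052 bp, against 5001 bp for the other 6 members.

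**Figure D2:**
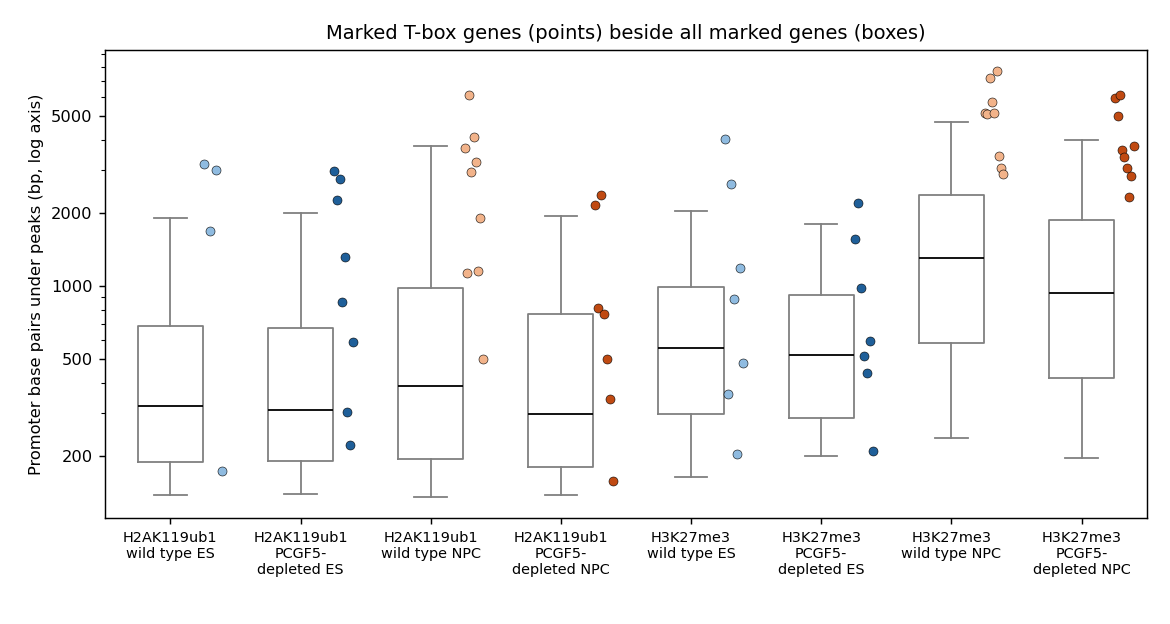
Base pairs under promoter peaks (y axis, bp, log axis) of the marked T-box genes (points) in each of the 8 histone lists (x axis), beside all marked genes (box from the 25th to the 75th percentile, line at the median, whiskers at the 5th and 95th percentiles). In the 2 NPC lists of H3K27me3 all 9 points lie above the box.

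Tbx2, Tbx3, Tbx4 and Tbx5 form 1 subfamily, arranged as a Tbx2-Tbx4 pair on chromosome 11 and a Tbx3-Tbx5 pair on chromosome 5. Tbx2 (ENSMUSG00000000093.6, chr11:85646053-85655450, +) encodes a transcriptional repressor of heart and limb development. Its promoter had 1692 bp of H2AK119ub1 in wild type and 2262 bp in PCGF5-depleted ES cells, and 1130 and 813 bp in the respective NPCs. H3K27me3 covered 361 bp in wild type ES cells, 2207 bp in PCGF5-depleted ES cells, 5114 bp in wild type NPCs and 4997 bp in PCGF5-depleted NPCs. H2AK119ub1 at Tbx2 was thus lower in NPCs than in ES cells by this count while H3K27me3 was higher. The count by peak centre missed a wide peak that reached into the window. In wild type NPCs 2 peaks covered 7759 bp of the Tbx2 gene, with a fold enrichment of up to 8.61, and 2655 bp of any peak lay inside the promoter window. In wild type ES cells these values were 4384 and 1479 bp, so by these counts H2AK119ub1 was higher in wild type NPCs. In depleted cells it stayed lower in NPCs, with 2354 bp inside the window in ES cells and 813 bp in NPCs. Peaks upstream of Tbx2 lay partly in the gene 2610027K06Rik and cannot be assigned to 1 of these genes.

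Tbx3 (ENSMUSG00000018604.11, chr5:120120678-120134733, +) encodes a repressor expressed in naive ES cells and later in limb, heart and mammary gland. It had no peak of either mark in either ES list, at the promoter or over the gene. In NPCs H2AK119ub1 covered 6098 bp of promoter sequence in wild type and 2366 bp in PCGF5-depleted cells, and H3K27me3 covered 7182 and 6136 bp. Both NPC lists thus separated from both ES lists for each mark. The wild type H2AK119ub1 peak with the highest fold enrichment among the members, 11.0 (the 99.9th percentile of its list), lay in an intron of Tbx3 at chr5:120131488-120132103, next to an internal start site 10082 bp downstream of the first. The region around the first start site alone held 3435 bp of H2AK119ub1 in wild type and 1157 bp in PCGF5-depleted NPCs, and that around the internal one 2663 and 1209 bp. H2AK119ub1 was therefore lower in the depleted list at both ends of the gene. For H3K27me3 the ends differed by this count. The first start site had 2608 bp in wild type and 3825 bp in depleted NPCs, and the internal one 4574 and 2311 bp. This split takes whole peaks by their centre and was not made with only the bases inside the windows. Those bases, over all start sites of Tbx3, came to 8745 bp in wild type and 5662 bp in depleted NPCs.

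Tbx4 (ENSMUSG00000000094.6, chr11:85699924-85729599, +) acts in the hindlimb and the lung. Its H2AK119ub1 coverage was 3012 bp in wild type ES cells, 2752 bp in PCGF5-depleted ES cells, 2956 bp in wild type NPCs and 766 bp in PCGF5-depleted NPCs. The first 3 lists were close to each other and the depleted NPC list was the low one. H3K27me3 covered 2626, 981, 5718 and 3627 bp in the same order. The strongest H3K27me3 peak of any member, with a fold enrichment of 11.4, was the 4307 bp peak of wild type NPCs at chr11:85701747-85706053 (summit in an intron of Tbx4). It lay around the second start site, 3641 bp from the first. The first start site itself had 1005 bp of H2AK119ub1 in wild type NPCs and 0 bp in depleted NPCs. H3K27me3 there had the other order, with 835 bp in wild type and 1751 bp in depleted NPCs.

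Tbx5 (ENSMUSG00000018263.8, chr5:120284672-120335227, +) acts in the forelimb and the heart. H2AK119ub1 covered 174 bp in wild type and 864 bp in PCGF5-depleted ES cells, 4110 bp in wild type NPCs and 500 bp in depleted NPCs. The wild type NPC list stood apart from the other 3. H3K27me3 covered 886, 516, 5174 and 3399 bp in that order, so that both NPC lists were high. The strongest wild type NPC promoter peaks of Tbx5 lay upstream of the start site, at chr5:120281958-120284465 for H2AK119ub1 (2508 bp, fold enrichment 7.23) and chr5:120280901-120284511 for H3K27me3 (3611 bp, fold enrichment 8.98), outside the gene.

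The other subfamilies gave the remaining 5 members. Tbx1 (ENSMUSG00000009097.8, chr16:18581806-18588113, -) is the pharyngeal and cardiac outflow tract factor of the chromosomal region lost in DiGeorge syndrome. Its H2AK119ub1 coverage was 3183 bp in wild type ES cells, 2986 bp in depleted ES cells, 3720 bp in wild type NPCs and 2160 bp in depleted NPCs. H3K27me3 covered 4044, 1560, 5142 and 5937 bp. Tbx1 was thus well marked at both stages, and with Tbx21 it was 1 of 2 members whose H3K27me3 coverage was higher in depleted than in wild type NPCs. At Tbx1 this did not hold when only bases inside the window were counted, with 5849 bp in wild type and 5789 bp in depleted NPCs. The fold enrichment of the strongest H3K27me3 peak was nevertheless 9.18 in wild type and 6.82 in depleted NPCs.

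Tbx15 (ENSMUSG00000027868.5, chr3:99044304-99158182, +) acts in the skeleton and in the dermis. H2AK119ub1 covered 0 bp in wild type ES cells, 1320 bp in depleted ES cells, 3235 bp in wild type NPCs and 0 bp in depleted NPCs. H3K27me3 covered 205, 440, 7663 and 3053 bp in that order. The wild type NPC list was the highest of the 4 for both marks. In depleted NPCs the nearest H2AK119ub1 peak, 678 bp wide, ran from 2297 to 2974 bp downstream of the start site, across the edge of the promoter window, with its centre outside. Over the gene body of Tbx15, 21 H2AK119ub1 peaks covered 13813 bp in wild type NPCs and 4 peaks covered 1167 bp in depleted NPCs. Tbx15 was the only member called lower for H3K27me3 in depleted NPCs, a call that rests on wide peaks counted in full. Counting only bases inside the window gave 4490 bp in wild type NPCs and no member was then called lower.

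Tbx18 (ENSMUSG00000032419.7, chr9:87597635-87626095, -) acts in the epicardium and in somites. Its H2AK119ub1 coverage was 0 bp in wild type ES cells, 303 bp in depleted ES cells, 1156 bp in wild type NPCs and 343 bp in depleted NPCs. H3K27me3 covered 1189, 598, 3422 and 2325 bp. The single H2AK119ub1 peak in depleted ES cells had a fold enrichment of 2.68, at percentile 4.73 of its list, and is a weak peak. That in depleted NPCs was also weak, with a fold enrichment of 3.26 at percentile 5.86 of its list.

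Tbx20 (ENSMUSG00000031965.7, chr9:24527648-24578746, -) is a cardiac factor. H2AK119ub1 covered 0 bp in wild type ES cells, 222 bp in depleted ES cells, 1903 bp in wild type NPCs and 0 bp in depleted NPCs, where the gene body had no peak either. H3K27me3 covered 0, 211, 3068 and 2845 bp. In NPCs the promoter coverage of Tbx20 thus differed for H2AK119ub1 and was close for H3K27me3. Over the gene body H3K27me3 was not close, with 3683 bp in wild type and 1728 bp in depleted NPCs.

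Tbx21 (ENSMUSG00000001444.2, chr11:96959385-96976645, -) encodes T-bet, the factor that directs helper T cells to the Th1 fate. It had the least H2AK119ub1 of the members in wild type NPCs, 500 bp in a single peak, with 158 bp in depleted NPCs, 590 bp in depleted ES cells and 0 bp in wild type ES cells. H3K27me3 covered 483 bp in wild type ES cells, 0 bp in depleted ES cells, 2893 bp in wild type NPCs and 3788 bp in depleted NPCs. The H2AK119ub1 peak was short in both NPC lists but not low in fold enrichment, with 7.31 in wild type and 6.93 in depleted cells. The window at its wild type summit held runs of GA and GT repeats, whose effect on the peak was not tested.

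**Figure D3:**
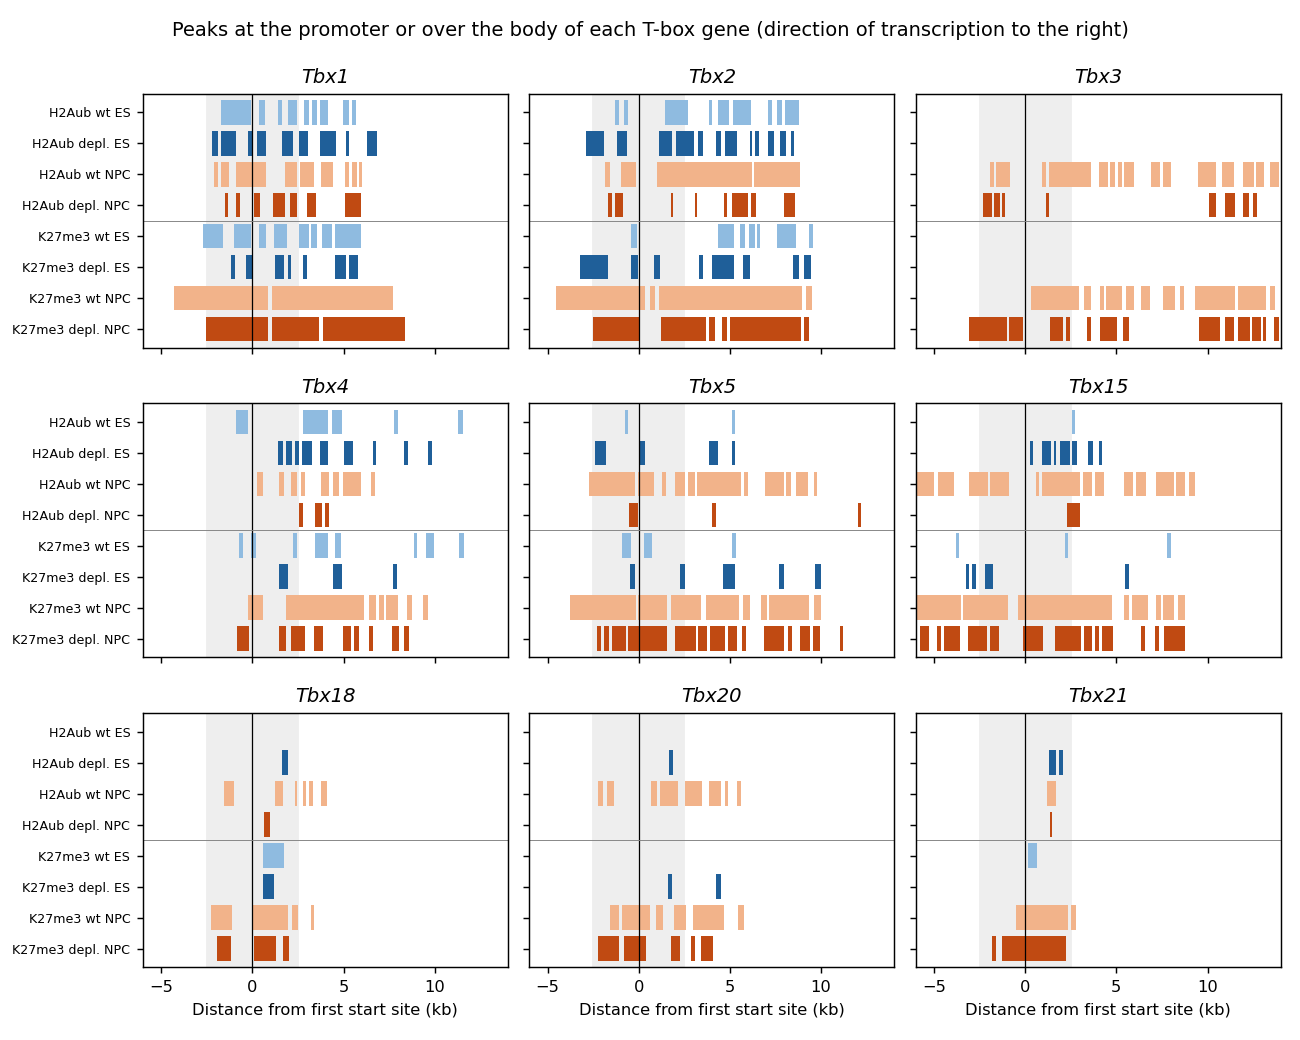
Peaks at the promoter or over the body of each T-box gene by distance from its first start site (x axis, kb, transcription to the right); rows are the 8 histone lists (H2Aub, H2AK119ub1; K27me3, H3K27me3; wt, wild type; depl., PCGF5-depleted) and the grey band marks 2500 bp on either side of the first start site. At Tbx3 the 4 ES rows are empty, and at Tbx5 and Tbx15 the wild type NPC rows are filled more densely than the depleted NPC rows; peaks beyond the drawn range are not shown.

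The library of PCGF5-depleted NPCs was compared with that of wild type NPCs for each mark. With 1 library on each side and unknown depth, genotype and library cannot be told apart. H2AK119ub1 over the 9 promoters summed to 24808 bp in wild type and 7106 bp in depleted NPCs, a log2 ratio of -1.80, and the summed coverage over all genes gave -0.92. Coverage was lower in all 9 members. In this and the following comparisons a gene was called when its coverage differed at least 2 times or when only 1 list had a peak, and background shares are of the genes with a promoter peak in either list. By this rule 7 of 9 members were called lower (Tbx3, Tbx4, Tbx5, Tbx15, Tbx18, Tbx20 and Tbx21) against a background of 51.8%, and 0 were called higher against 29%. The 7 members with a peak in both lists had a median log2 ratio of -1.66, where 562 genes with a peak in both had a median of -0.58. The depleted list was shorter, with 3845 peaks against 5754. With all H2AK119ub1 lists shortened to their best 3845 peaks the summed log2 ratio over the members was -1.54. With the 1000 bp window it was -0.95, and 4 members were then called lower and 1 higher, so that coverage was not lower in all 9, and merging peaks within 1000 bp also gave 1 member called higher. Over the gene bodies coverage was lower in all 9 members, with 48307 bp in wild type and 9584 bp in depleted NPCs (log2 ratio -2.33). Some of these peaks were also counted at the promoters, so this is not a separate result. Body coverage was not summed over all genes. Of all genes, 5.29% had an H2AK119ub1 body peak in wild type and 5.34% in depleted NPCs.

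H3K27me3 at the same promoters had a smaller ratio between the NPC lists under the main settings. It summed to 45376 bp in wild type and 36107 bp in depleted NPCs (log2 ratio -0.33, all genes -0.36), and the ratio was -0.91 when any overlapping base counted and -1.10 with peaks within 1000 bp merged. By the same rule 0 members were called higher (background 23.7%) and 1, Tbx15, lower (34.1%), while 7 members had less coverage and Tbx1 and Tbx21 had more. Tbx1 did not have more when only bases inside the window were counted. Over the gene bodies all 9 had less, 67364 bp in wild type against 46337 bp in depleted NPCs (log2 ratio -0.54). Here too body coverage was not summed over all genes, of which 16.2% had a body peak in wild type and 15.7% in depleted NPCs. The H3K27me3 list of depleted NPCs was the longer one, with 14759 peaks against 11371, of a smaller median width (360 against 453 bp). The highest fold enrichment at a member's promoter was 11.4 in the wild type and 7.79 in the depleted list. Column medians of fold enrichment over the whole lists were 4.69 and 4.11, so the levels of the lists themselves differed.

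In ES cells the coverage of H2AK119ub1 over the members went the other way. It summed to 8061 bp in wild type and 11299 bp in PCGF5-depleted ES cells (log2 ratio 0.49, all genes -0.14). The members called higher were 5 of the 8 with a peak in either list (Tbx5, Tbx15, Tbx18, Tbx20 and Tbx21) against a background of 33.6%, and 0 were called lower against 43.5%. This direction did not hold under every other setting: the log2 ratio was -0.36 with the 1000 bp window, -0.27 with the higher-scoring 50% of each list and -0.11 with lists of equal length. Under the remaining settings it stayed positive, at 0.26 to 0.78. The added peaks of Tbx18 and Tbx20 had fold enrichments of 2.68 and 3.19. H3K27me3 in ES cells summed to 9794 bp in wild type and 6513 bp in depleted cells (log2 ratio -0.59, all genes -0.18), with 3 members called higher (Tbx2, Tbx15 and Tbx20, background 27.7%) and 3 called lower (Tbx1, Tbx4 and Tbx21, background 34.5%).

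**Figure D4:**
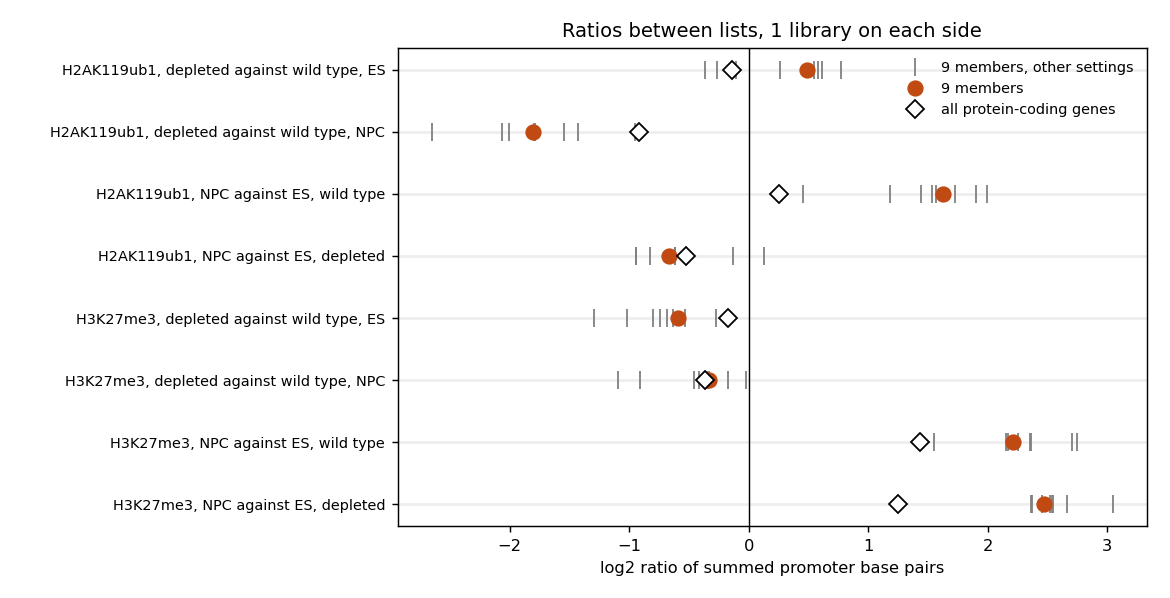
Log2 ratio of summed promoter base pairs between lists (x axis) for each comparison (y axis), for the 9 T-box genes (filled circles), for all protein-coding genes (open diamonds) and for the 9 genes under other processing settings (grey ticks). The H2AK119ub1 ratio of depleted to wild type NPCs stays below 0 under every setting drawn, and that in ES cells lies on both sides of 0.

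The comparison of NPCs with ES cells shows how the marks at these genes differed between the stages in each genotype. H3K27me3 coverage over the members was higher in NPCs in both genotypes. In wild type cells the log2 ratio was 2.21 (all genes 1.43), with 8 members called higher against a background of 60.3% and 0 lower against 21.5%. In PCGF5-depleted cells it was 2.47 (all genes 1.25), with 9 members called higher (background 56.9%) and 0 lower (19.6%). The uncalled member in wild type cells was Tbx1, which already had 4044 bp in ES cells. The H3K27me3 lists of NPCs covered 9.67 and 8.18 Mb of the genome and those of ES cells 4.31 and 3.84 Mb.

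For H2AK119ub1 the summed coverage had opposite signs in the 2 genotypes under the main settings. In wild type cells the members' coverage had a log2 ratio of 1.62 (all genes 0.25, members 0.46 with the 1000 bp window), with 6 members called higher (Tbx3, Tbx5, Tbx15, Tbx18, Tbx20 and Tbx21, background 35.7%) and 0 lower (background 50.7%). The 4 members with a peak in both lists had a median log2 ratio of only 0.10, where 550 genes with a peak in both had 0.26. In PCGF5-depleted cells the log2 ratio was -0.67 (all genes -0.53) and turned to 0.13 with lists of equal length, with 1 member called higher (Tbx3, background 26.7%) and 5 lower (Tbx2, Tbx4, Tbx15, Tbx20 and Tbx21, background 54.2%). The depleted share of 5 in 9 lies near its background. The wild type NPC list enters both this comparison and that of the genotypes, so these values are not independent of each other.

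The marks shared most of their sequence at these promoters in NPCs and less in ES cells, as they did over all genes. Of the H2AK119ub1 base pairs at members, 47.0% lay inside H3K27me3 peaks in wild type ES cells (all genes 47.3%) and 22.6% in PCGF5-depleted ES cells (27.9%). In wild type NPCs the share was 92.8% (all genes 91.6%) and in depleted NPCs 94.6% (88.3%). Tbx20 was apart from the rest in wild type NPCs, with 47.3% of its H2AK119ub1 inside H3K27me3, where the other 8 members had between 86.4% and 100%. In wild type ES cells none of the 1692 bp of H2AK119ub1 at Tbx2 lay in an H3K27me3 peak.

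Flag-PCGF5 peaks were found at the members about as often as over all genes. In ES cells 0 of 9 members had a promoter peak, where 0.787% of all genes did. In NPCs 1 of 9 had one against 13.7% of all genes. This was a peak of 486 bp at Tbx2 (chr11:85645815-85646300) with its summit in an untranslated exon and a fold enrichment of 2.097, near the list's median of 2.22, and it was absent from the higher-scoring 50% of the list. The other 8 members had no Flag-PCGF5 peak over the gene body either, where 21.0% of all genes had one in NPCs. The Flag libraries were made from sonicated chromatin after double fixation and the histone libraries from MNase-digested chromatin, so their peak shapes cannot be compared.

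Among the 8 other T-box genes the promoters fell into a marked and an unmarked set. T (Brachyury) and Eomes, both mesendoderm factors, were marked in 6 of 8 histone lists and Tbr1, a factor of cortical neurons, in 7. Tbx6, Tbx10, Tbx22 and Mga were marked in none, and Tbx19, the pituitary factor, in 1 (270 bp of H3K27me3 in PCGF5-depleted ES cells). In wild type NPCs Eomes had 2268 bp and Tbr1 2993 bp of H2AK119ub1, and in depleted NPCs 0 and 1053 bp. Their H3K27me3 coverage was 4462 and 3879 bp in wild type and 2768 and 3842 bp in depleted NPCs. These marked relatives thus also had less H2AK119ub1 in the depleted NPC list. T had no H2AK119ub1 peak in NPCs and was the only other family gene with a Flag-PCGF5 promoter peak, of 1234 bp.

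The CpG content of the family overlapped between marked and unmarked genes. Within 2500 bp of the first start site the 9 members held 112 (Tbx5) to 291 (Tbx1) CpGs with a median of 176, where the median over all genes was 96. T held 181, Eomes 261 and Tbr1 139, whereas the 4 unmarked genes Tbx6, Tbx10, Tbx22 and Mga held 93, 68, 19 and 127 and Tbx19 held 75. Mga, which encodes a partner of another variant PRC1 and is broadly expressed, was therefore unmarked with more CpGs than the marked Tbx4 (124), Tbx20 (116) and Tbx5 (112). Within 500 bp of the start site the marked Tbx5 and Tbr1 held 8 and 25 CpGs and the unmarked Tbx6 and Mga 29 and 71. Genes with an H2AK119ub1 promoter peak in wild type NPCs had a median of 170 CpGs, close to that of the members. The core of the T-box binding site, GGTGTGA, searched on both strands in the same windows, occurred at 4 of 9 members and at 48.8% of all genes.

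**Figure D5:**
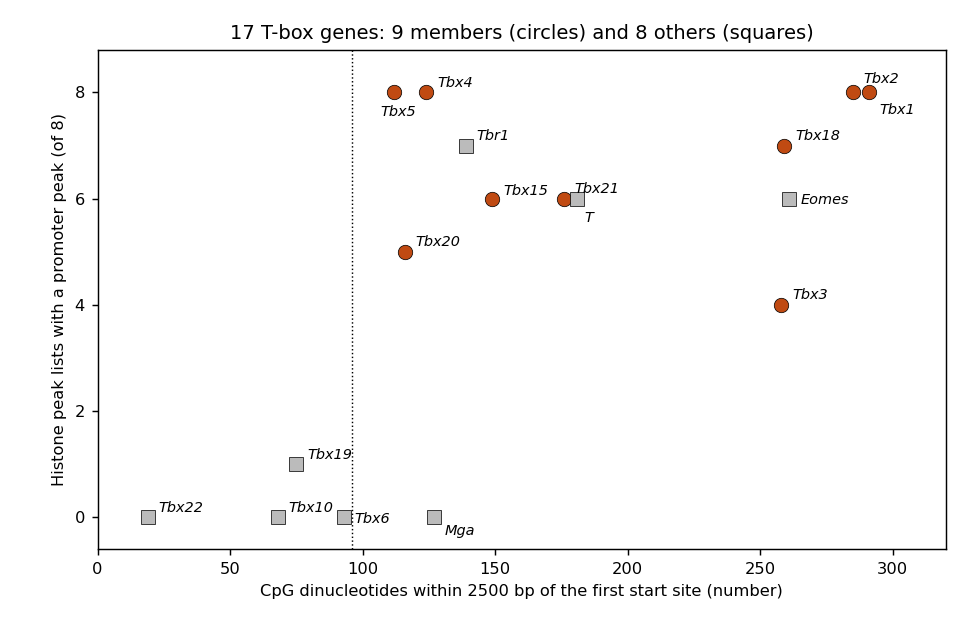
Number of CpG dinucleotides within 2500 bp of the first start site (x axis) and number of the 8 histone lists with a promoter peak (y axis) for 17 T-box genes, the 9 members as circles and the 8 others as squares; the dotted line is the median of all genes, 96 CpGs. The members, T, Eomes and Tbr1 all lie at 4 lists or more and to the right of the line, and Mga lies at 0 lists with 127 CpGs.

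The space between the linked pairs was marked unequally. Between Tbx3 and Tbx5 (chr5:120134734-120284671, 149.9 kb between genes) H2AK119ub1 covered 2.14% in wild type ES cells, 1.93% in depleted ES cells, 9.73% in wild type NPCs and 1.45% in depleted NPCs. H3K27me3 there covered 2.35%, 2.07%, 16.3% and 10.8% in the same order. Between Tbx2 and Tbx4 (chr11:85655451-85699923, 44.5 kb) no list covered more than 4.01%, and H2AK119ub1 had no peak in NPCs. The Tbx3-Tbx5 interval thus had its highest coverage of both marks in wild type NPCs, as the promoters of both genes did. The interval runs up to the Tbx5 start site, so it and the Tbx5 promoter share peaks and are not independent. In wild type NPCs the shared peaks include those of 2508 bp of H2AK119ub1 and 3611 bp of H3K27me3.

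The 5 genes outside the family whose coverage over the 8 histone lists was nearest to the mean of the 9 members, by Euclidean distance in bp, were Nr4a2 (1202 bp), Shox2 (1347 bp), Dlx5 (1495 bp), Hoxa2 (1496 bp) and Sox14 (1553 bp). Nr4a2 encodes a nuclear receptor needed for dopamine neurons, Shox2, Dlx5 and Hoxa2 encode homeobox factors, and Sox14 encodes a SOX factor. The members themselves lay 1751 to 5180 bp from this mean, farther than these 5 genes, and the lists used for the choice include all those compared above, so their levels add no further result.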

How the data were processed

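Chromatin of mouse 46C ES cells and day 6 NPCs was immunoprecipitated for H2AK119ub1, H3K27me3 or Flag-PCGF5. Per the study's methods and the submitters' processing notes, the authors used Trimmomatic for trimming, Bowtie2 for alignment to mm9, Picard for duplicates and MACS2 2.1.0 for peaks, library by library. Of 16 samples, 10 had a peak list and the 6 inputs were not analysed here. A deposited peak carries a score (10 times -log10 p), a fold enrichment over local background (a ratio), a -log10 p, a -log10 q and a summit. The lowest deposited -log10 p in the histone lists lay between 4.00 and 4.05, and the lowest -log10 q in the Flag lists was 2.00. The lists hold no read totals and no Drosophila spike-in scaling, so the length of a list can depend on depth and background.

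Start sites, gene bodies and exons were taken from GENCODE M1 on mm9 (22232 protein-coding gene names), and sequences from the mm9 genome. Coverage is the summed width of promoter peaks as defined in the report. Calls need a 2-fold difference or a peak in only 1 list. Genes named outside the 9 members were the other T-box genes and the 5 nearest patterns, and for each member the peak with the highest fold enrichment per list was read. The members and gene lists were chosen with earlier results of these data known. Settings varied were the window (1000 bp), any overlapping base, the higher-scoring 50%, equal numbers of top-scoring peaks, a q-value of 0.01, peaks within 1000 bp merged, a wider gene body and, chosen after seeing the data, the bases of any peak inside the window and the first start site alone. Peak assignment was tested on simulated lists, and 222320 gene-body counts were compared with bedtools 2.31.1, of which 0 differed. Python 3.11.15, pandas 2.3.3, numpy 2.4.6 and matplotlib 3.10.9 were used.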

Additional observations from a re-analysis of the deposited data

Results flagged for a closer look

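The sign of a difference between libraries changed with the stage or the genotype in the following values, each from 1 library per group, so that no difference was tested. Summed H2AK119ub1 coverage of the 9 promoters, PCGF5-depleted against wild type, had a log2 ratio of 0.49 in ES cells and -1.80 in NPCs. The ES value was -0.36, -0.27 and -0.11 with the 1000 bp window, the higher-scoring 50% and lists of equal length, and the sign then did not change between stages. The log2 ratio of NPCs to ES cells was 1.62 in wild type and -0.67 in PCGF5-depleted cells, where it was 0.13 with lists of equal length and the change of sign was lost. Of the single genes, depleted minus wild type H2AK119ub1 coverage was 570 bp in ES cells and -317 bp in NPCs at Tbx2, 690 and -3610 bp at Tbx5, and 1320 and -3235 bp at Tbx15. At Tbx18 it was 303 and -813 bp, at Tbx20 222 and -1903 bp, and at Tbx21 590 and -342 bp. Of these 6 genes, Tbx18, Tbx20 and Tbx21 had no H2AK119ub1 peak in wild type ES cells and 1 or 2 in depleted ES cells. With lists of equal length, Tbx2 in ES cells had 1513 bp in wild type and 964 bp in depleted cells. Tbx5, Tbx18 and Tbx20 then had 0 bp in both ES lists. The change of sign was thus lost at these 4 genes and kept at Tbx15 and Tbx21.

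H3K27me3 coverage, depleted minus wild type, was 1846 bp in ES cells and -117 bp in NPCs at Tbx2, 235 and -4610 bp at Tbx15, and 211 and -223 bp at Tbx20. It had the opposite order of signs at Tbx1, with -2484 bp in ES cells and 795 bp in NPCs, and at Tbx21, with -483 and 895 bp. With only bases inside the window counted, Tbx1 in NPCs had 5849 bp in wild type and 5789 bp in depleted cells. Its change of sign was then lost.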

How the results depend on the processing

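Each group had 1 library and no read totals, so depth, background and biological spread could not be separated from a difference between lists. No paired analysis was possible because the labels give no replicate numbers and each group has 1 library. Of 80 log2 ratios under other settings, 71 kept their direction within the margin used, 4 moved and 5 reversed, and the cause was not tested. The margin came from a binomial interval on the numbers of member peaks in both lists, which treats neighbouring peaks as independent. It was wide. The H3K27me3 ratio of depleted to wild type NPCs still counted as kept when any overlapping base moved it from -0.33 to -0.91. The H2AK119ub1 ratio of depleted to wild type ES cells (0.49) became -0.36 with the 1000 bp window, -0.27 with the higher-scoring 50% and -0.11 with lists of equal length, and over gene bodies (0.45) it became -0.13 with the higher-scoring 50%. The H2AK119ub1 ratio of NPCs to ES cells in depleted cells (-0.67) became 0.13 with lists of equal length. The H2AK119ub1 ratio of depleted to wild type NPCs (-1.80) became -0.95 with the 1000 bp window and -2.65 with the higher-scoring 50%, that of wild type NPCs to ES cells (1.62) became 0.46 with the 1000 bp window, and the H3K27me3 ratio of depleted to wild type NPCs (-0.33) became -1.10 with peaks merged. Members with an H2AK119ub1 promoter peak in depleted ES cells numbered 5 instead of 8 with the 1000 bp window, the higher-scoring 50% and equal lengths. For H3K27me3 they numbered 4 in wild type ES cells with the higher-scoring 50% and 4 in depleted ES cells with the 1000 bp window, and for Flag-PCGF5 in NPCs 0 with the higher-scoring 50% and equal lengths. Calls of H2AK119ub1 in depleted against wild type ES cells were 2 higher with the 1000 bp window, the higher-scoring 50% and equal lengths and 3 with a q-value of 0.01, and 1 lower with the higher-scoring 50%. In NPCs they were 1 higher with the 1000 bp window and with merging, and 4 lower with the 1000 bp window. Between stages, H2AK119ub1 calls in wild type cells were 1 lower with merging, and in depleted cells 3 higher with the 1000 bp window and equal lengths, 2 higher with merging, and 2 and 3 lower with the 1000 bp window and equal lengths. For H3K27me3 in ES cells 1 member was called higher in depleted cells with the 1000 bp window and 5 lower with merging. In NPCs 2 were called higher with the 1000 bp window and with merging and 1 with the first start site alone, and 2 lower with the 1000 bp window, any overlapping base, the higher-scoring 50%, equal lengths and merging, and 0 with the bases inside the window. Between stages, 5 were called higher in wild type cells with the 1000 bp window and with merging, 1 and 2 lower in wild type cells, and 1 and 1 lower in depleted cells under the same pair of settings. Merging joins peaks into stretches whose midpoint can leave the promoter window, which removed Tbx3 and Tbx20 from the wild type NPC H2AK119ub1 count.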

Other observations

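The promoters of genes used as markers of the cell types gave the following values, which are peaks and not expression. Among 5 ES cell genes, Pou5f1 and Nanog had no histone peak in any list. Klf4 had 258 bp of H2AK119ub1 and 2156 bp of H3K27me3 in wild type NPCs, 0 and 925 bp in depleted NPCs, and no peak in ES cells. Zfp42 had 253 bp of H3K27me3 in wild type NPCs and no other histone peak at the promoter. Esrrb had H3K27me3 at both stages, 1340 bp in wild type ES cells and 2686 bp in wild type NPCs. Of the neural genes chosen, 4 were found among the protein-coding names used, and Sox1 was not, so it has no values here. Among these 4, Pax6 was marked in all 8 histone lists, with 18187 bp of H3K27me3 in wild type and 13680 bp in depleted NPCs, and with 10492 and 2308 bp of H2AK119ub1. Pax3 had 1810 and 364 bp of H2AK119ub1 and 3061 and 3365 bp of H3K27me3 in the same cells. Nes had 0 and 354 bp of H2AK119ub1 and 1252 and 2614 bp of H3K27me3, more in the depleted list for both marks. Otx2 had 2893 bp of H2AK119ub1 and 6013 bp of H3K27me3 in wild type NPCs and no peak in the other 6 histone lists.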
